A study of Homo sapiens with 3 samples.

Results

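DNA topoisomerases and the enzymes that remove trapped topoisomerases from DNA were examined in H9, an established human embryonic stem cell line. The 10 genes TOP1, TOP1MT, TOP2A, TOP2B, TOP3A, TOP3B, TDP1, TDP2, SPRTN and SPO11 were taken by their symbols in the GENCODE annotation and are 10 of 58051 genes listed in the counts. The cells were wild type and untreated, grown without feeder cells in Essential 8 Flex medium on vitronectin, and total RNA depleted of ribosomal RNA was sequenced in 3 replicates. There is 1 condition, so that no difference between conditions could be tested, and nothing in the labels says whether the replicates were separate cultures. The spread between them is the error given here and may be technical. The study was concerned with DNA replication origins, with topoisomerases and DNA double-strand breaks (DSBs) among the features it mapped, and the RNA-seq counts give the levels of transcripts for these enzymes in the same cell line.

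Topoisomerases cut DNA, let it turn or pass through the gap and seal it again, and during the cut a tyrosine of the enzyme is bound to the DNA end. Type IB enzymes (TOP1 in the nucleus, TOP1MT in mitochondria) cut a single strand and relieve supercoils ahead of polymerases and forks. Type II enzymes (TOP2A and TOP2B) cut both strands and separate linked DNA molecules. Type IA enzymes (TOP3A and TOP3B) pass single strands. SPO11 is related to the type II enzymes and makes the DSBs of meiosis. When sealing fails, the enzyme stays on the DNA as an adduct. TDP1 releases TOP1 from 3′ ends, TDP2 releases TOP2 from 5′ ends, and SPRTN is a protease that degrades proteins crosslinked to DNA during replication. In proliferating cells TOP2A is known as an enzyme of G2 phase and mitosis, whereas TOP2B is also present in cells that do not divide.

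The paralogs were counted separately, and the sequences below show how far reads from a pair can be told apart. Coding sequences were aligned to annotated transcripts with blastn, and the longest aligned segment of each pair is given. TOP2A and TOP2B were 74.1% identical over 3465 aligned positions. Within the aligned segment, their most similar stretch of 60 bases without gaps had 7 differences. It spans the junction of exons 5 and 6 in both genes, at chr17:40413480-40413534 and chr17:40413288-40413292 for TOP2A and at chr3:25638165-25638219 and chr3:25637308-25637312 for TOP2B (GRCh38, minus strand for both). The longest aligned segment of the type IA pair was only 97 bases, with 78.4% identity, and its closest stretch of 60 bases had 10 differences. That stretch spans exons 13 and 14 in both genes, at chr17:18290557-18290604 and chr17:18285509-18285520 for TOP3A and at chr22:21962429-21962476 and chr22:21960438-21960449 for TOP3B (minus strand for both). Capitals mark the bases that differ within a pair.

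TOP2A: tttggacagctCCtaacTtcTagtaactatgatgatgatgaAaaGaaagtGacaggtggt
TOP2B: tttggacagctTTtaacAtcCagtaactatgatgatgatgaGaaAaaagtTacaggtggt
TOP3A: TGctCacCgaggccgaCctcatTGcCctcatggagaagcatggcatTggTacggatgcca
TOP3B: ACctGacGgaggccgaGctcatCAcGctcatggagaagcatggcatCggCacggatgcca

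Processed pseudogenes, which are copies of a spliced transcript elsewhere in the genome, were closer than any paralog. TOP1P1 (chromosome 1) was 96.8% identical to TOP1 over 659 positions, or 28.7% of the TOP1 coding sequence, and was not analysed here. TOP3BP1 (chromosome 22) was 99.8% identical to TOP3B over 481 positions, or 18.6% of its coding sequence. In all, 0, 0 and 2 reads were counted on TOP3BP1 in replicates 1, 2 and 3. The lines below show a stretch without any difference between gene and pseudogene, in exons 17 and 18 of TOP1 (chr20:41116386-41116392 and chr20:41118169-41118221, plus strand, with TOP1P1 at chr1:171339481-171339540) and in exons 17 and 18 of TOP3B (chr22:21958492-21958493 and chr22:21957538-21957595, minus strand, with TOP3BP1 at chr22:22223610-22223669). A read that lies within either stretch fits both places equally well.

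TOP1 and TOP1P1: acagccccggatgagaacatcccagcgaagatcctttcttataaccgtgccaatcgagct
TOP3B and TOP3BP1: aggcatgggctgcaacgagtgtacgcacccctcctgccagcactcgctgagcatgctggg

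The libraries held 10390984, 12024802 and 8655155 reads on genes. Levels are given as TPM, a relative transcript abundance in which counts are divided by the summed length of the annotated exons of a gene and scaled to the same total in each library. All 10 pluripotency markers examined were in the high class, as defined below by the rule of the study, at means of 259 to 2576 TPM. None of 12 lineage markers and none of 7 germ cell markers was in that class by its mean. The lineage markers MIXL1, FOXA2 and EOMES were in the medium class, and MIXL1, the highest, had 28.1, 21.9 and 16.8 TPM. Of 6 fibroblast markers, THY1, which embryonic stem cells also carry, was in it at 145 TPM. COL1A2 at 25.6 TPM and COL1A1 at 14.6 TPM were in the medium class, and the lowest, DCN, had 0.0985 TPM. The part of other cells in the levels below was not tested.

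Of the 10 genes, 9 were detected in every replicate and SPO11 in none. TOP2A was the highest, TOP1, TDP2 and TOP2B followed, TDP1, TOP3A, TOP1MT and TOP3B were lower, and SPRTN was the lowest of those detected. The study called genes below 0.01 TPM nonexpressed and divided the others into 3 quantiles. With its rule applied to protein-coding genes, the high class began at 27.0 TPM and held 28.8% of 19629 genes. It held 6 of the 10 genes here (TOP2A, TOP1, TDP2, TOP2B, TDP1 and TOP3A). TOP1MT, TOP3B and SPRTN were in the medium class, which began at 3.35 TPM. TOP1MT at 23.3 TPM and TOP3A at 32.6 TPM were those closest to the upper boundary on either side. With canonical transcripts TOP3A left the high class and TOP1MT and TOP3B joined it, which made 7.

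**Figure D1:**
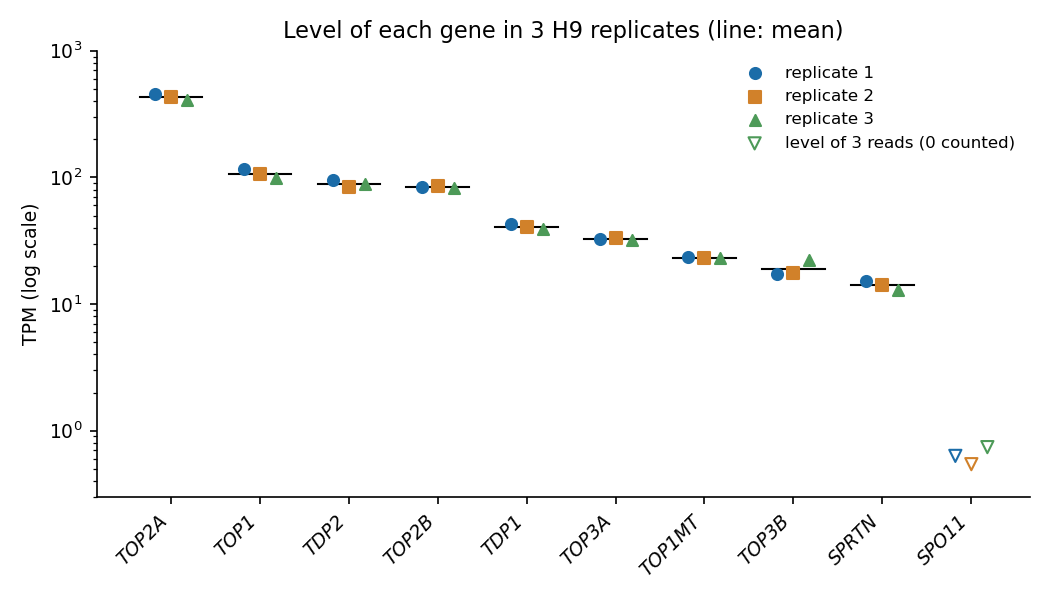
TPM (log scale) of each gene in replicates 1 to 3, with the mean as a line, and for SPO11 the level that 3 reads would have in each library, shown as open triangles because 0 reads were counted. TOP2A lies between 410 and 458 TPM, above every other gene in all 3 replicates.

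**Figure D2:**
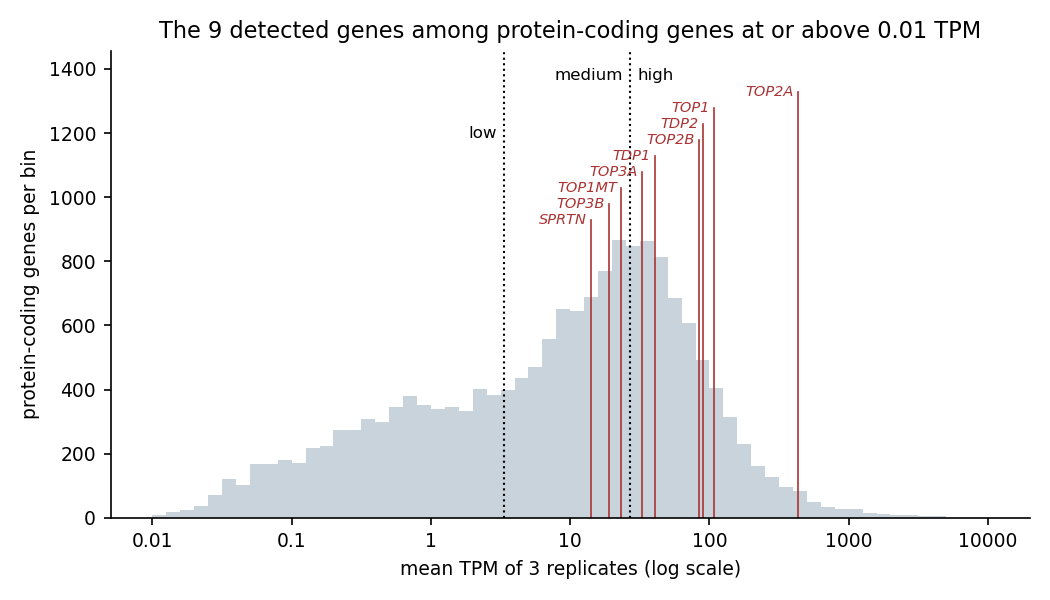
Mean TPM of 3 replicates (log scale) of protein-coding genes at or above 0.01 TPM, as a histogram, with the 9 detected genes as red lines and the class boundaries of 3.35 and 27.0 TPM as dotted lines. The 9 genes lie in the medium and high classes, and TOP2A lies in the upper tail.

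Among the type II enzymes, TOP2A (ENSG00000131747, chromosome 17, 40388525 to 40417896, minus strand), which separates sister chromatids before they segregate, had 7605, 8376 and 5801 reads in replicates 1, 2 and 3. This was 458, 434 and 410 TPM, a mean of 434 ± 24.1 TPM (SD, n = 3), above 98.8% of protein-coding genes. TOP2B (ENSG00000077097, chromosome 3, 25597978 to 25664909, minus strand), which acts at promoters and enhancers among other sites, had 4110, 4840 and 3439 reads. This was 84.7, 85.8 and 83.1 TPM, a mean of 84.5 ± 1.35 TPM (SD, n = 3). TOP2A was thus higher in every replicate, and the ranges of the paralogs did not overlap. The ratio of TOP2A to TOP2B within a library was 5.41, 5.06 and 4.93, a mean log2 ratio of 2.36 ± 0.07 (SD, n = 3). Its size depended on gene length: the exons annotated for TOP2B sum to 18645 bp over 26 transcripts, against 5814 bp for its canonical transcript, while those of TOP2A sum to 6374 bp against 5695 bp. With canonical transcripts the ratio was 1.89, 1.77 and 1.72, and in reads without any length it was 1.85, 1.73 and 1.69. In all 3 measures TOP2A was the higher, and the factor lay between 1.75 and 5.13 in the mean.

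Among the type IB enzymes, TOP1 (ENSG00000198900, chromosome 20, 41028822 to 41124487, plus strand) had 3059, 3256 and 2228 reads, or 116, 106 and 99.1 TPM, a mean of 107 ± 8.49 TPM (SD, n = 3). TOP1MT (ENSG00000184428, chromosome 8, 143304384 to 143359979, minus strand), which is encoded in the nucleus and works on mitochondrial DNA, had 391, 451 and 332 reads. Its level was nearly the same in each library, at 23.4, 23.2 and 23.3 TPM, with a mean of 23.3 ± 0.0910 TPM (SD, n = 3). That SD is 0.391% of the mean, below the 5.09% of counting error alone, so that the SD of these 3 libraries understates the error of this value. TOP1 was 4.96, 4.58 and 4.26 times as high as TOP1MT in replicates 1, 2 and 3, and the ranges did not overlap. With the longest transcript as the length the mean factor was 1.81, and with canonical transcripts it was 3.76. In its longest aligned segment this pair was 70.9% identical over 1545 positions.

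Among the type IA enzymes, TOP3A (ENSG00000177302, chromosome 17, 18271428 to 18315007, minus strand), which resolves joined DNA molecules together with the BLM helicase, had 695, 827 and 586 reads. This was 32.5, 33.2 and 32.1 TPM, a mean of 32.6 ± 0.575 TPM (SD, n = 3). TOP3B (ENSG00000100038, chromosome 22, 21957025 to 21982813, minus strand), which also acts on RNA, had 300, 354 and 327 reads. This was 17.4, 17.6 and 22.2 TPM, a mean of 19.1 ± 2.72 TPM (SD, n = 3). Replicate 3 was the highest for TOP3B and the lowest for TOP3A, yet TOP3A was above TOP3B in all 3 libraries. This order rests on gene length. With canonical transcripts, of 6596 bp for TOP3A and 2834 bp for TOP3B, the ratio of TOP3A to TOP3B was 0.995, 1.00 and 0.770, and the mean log2 ratio changed from 0.78 ± 0.22 to -0.13 ± 0.22 (SD, n = 3). Which of both genes had more transcripts cannot be told from these counts.

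The value of TOP3B has a further limit. Exons of PPM1F-AS1 cover 90.8% of the exon bases of TOP3B. PPM1F-AS1 is a long noncoding RNA gene on the opposite strand (chromosome 22, 21938269 to 21977632), and on it 488, 576 and 430 reads were counted. Without strand, reads from both genes cannot be told apart, and whether strand was used in counting is not given in the sources used here. PPM1F-AS1 had 4.95, 5.03 and 5.12 TPM over 37876 bp of exons, of which 6024 bp are shared with TOP3B. The part of the overlap in the level of TOP3B was not tested. SPRTN shared 13.5% of its exon length with exons on the opposite strand, mainly of EXOC8, and TOP1 shared 2.01%, with PLCG1-AS1. TOP2B shared 1.17% with small RNA genes on its own strand, and the other genes shared none.

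Adduct repair enzymes had lower levels than TOP2A throughout. TDP2 (ENSG00000111802, chromosome 6, 24649979 to 24666930, minus strand) had 745, 751 and 585 reads, or 96.1, 83.4 and 88.5 TPM, a mean of 89.3 ± 6.42 TPM (SD, n = 3). TDP1 (ENSG00000042088, chromosome 14, 89954939 to 90044764, plus strand) had 689, 765 and 536 reads, or 42.5, 40.6 and 38.8 TPM, a mean of 40.7 ± 1.86 TPM (SD, n = 3). Per length, TDP2 was therefore above TDP1 in every replicate, with a mean log2 ratio of TDP1 to TDP2 of -1.13 ± 0.08 (SD, n = 3). In reads the pair hardly differed, at a ratio of 0.925, 1.02 and 0.916, because the exons of TDP2 sum to 2977 bp and those of TDP1 to 6223 bp. SPRTN (ENSG00000010072, chromosome 1, 231337104 to 231355023, plus strand) had 233, 254 and 170 reads, or 15.2, 14.2 and 13.0 TPM, a mean of 14.1 ± 1.10 TPM (SD, n = 3). It remained the lowest of the 9 detected genes with each of the 3 gene lengths.

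In the order of mean TPM from TOP2A down to SPRTN, only TDP2 and TOP2B had overlapping ranges, with a difference of 4.82 TPM that was below the combined SD of 6.56 TPM. TDP2 was the higher in 2 of 3 replicates. Every other neighbor in the order was separated in all 3 replicates. For TOP1MT and TOP3B the gap in replicate 3, 23.3 against 22.2 TPM, lies within their counting errors of 5.09% and 5.54%. With canonical transcripts TOP2A stayed first, at 293 ± 15.3 TPM (SD, n = 3), followed by TOP1 at 175 ± 13.3 TPM and TOP2B at 164 ± 2.02 TPM. The replicate values of TOP1, 189, 173 and 163 TPM, then overlapped with those of TOP2B, 163, 166 and 162 TPM. TOP2B passed TDP2, and TOP1MT rose to 46.5 ± 0.256 TPM (SD, n = 3), above TDP1. The union of exons was 3.31 times the canonical length for TOP1MT, 3.21 times for TOP2B, 2.71 times for TOP1 and 1.12 times for TOP2A, against a median of 1.31 over protein-coding genes. With the longest transcript, of 8092 bp, TOP1 was at 101 ± 7.71 TPM (SD, n = 3), within its SD of the level by the union of exons. TOP2B was then at 151 ± 2.00 TPM (SD, n = 3) and above TOP1 in every replicate. Its values were 151, 153 and 149 TPM, against 109, 99.9 and 93.7 TPM for TOP1. The order of TOP1 and TOP2B thus depended on gene length.

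**Figure D3:**
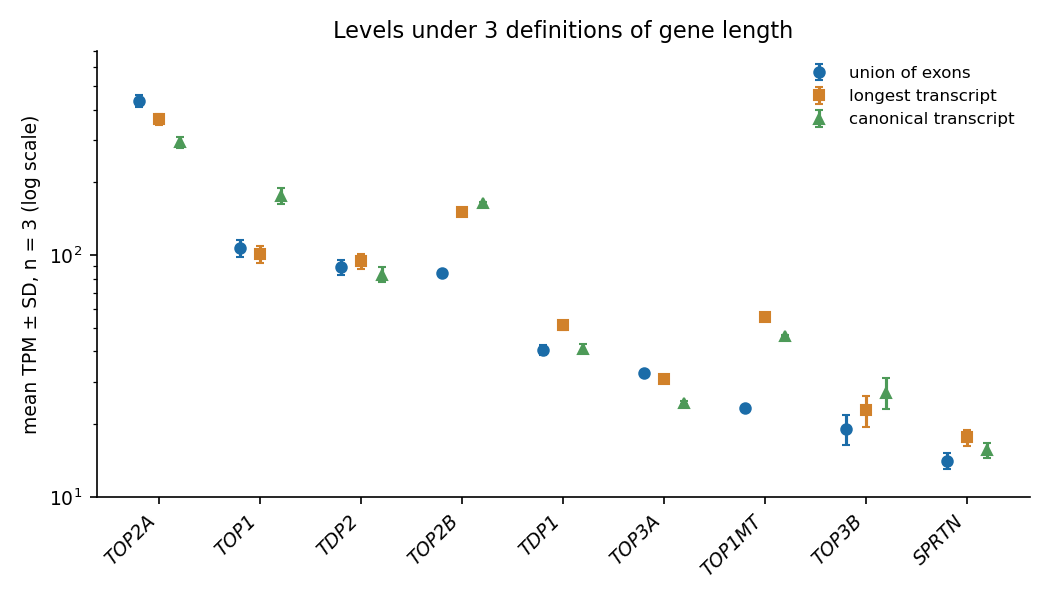
Mean TPM ± SD over 3 replicates (log scale) of the 9 detected genes, with counts divided by the union of exons, by the longest transcript or by the canonical transcript. TOP2A is the highest and SPRTN the lowest with each length, whereas TOP2B is at 84.5, 151 and 164 TPM, respectively.

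Taking the 6 topoisomerases together, TOP2A made up 62.6%, 62.0% and 61.2% of their summed TPM, a mean of 61.9 ± 0.692% (SD, n = 3). TOP1 held 15.3 ± 0.532%, TOP2B 12.1 ± 0.448%, both type IA genes together 7.39 ± 0.660% and TOP1MT 3.33 ± 0.142%. With canonical transcripts the share of TOP2A was 40.1 ± 0.670%, that of TOP1 24.0 ± 0.965% and that of TOP2B 22.4 ± 0.721%. With the longest transcript TOP2A held 50.3 ± 0.924%, TOP2B 20.8 ± 0.630% and TOP1 13.9 ± 0.584%, so that TOP2B was above TOP1. Type II enzymes together thus held most of the summed level with each length. These are shares of RNA and say nothing of protein.

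SPO11 (ENSG00000054796, chromosome 20, 57329803 to 57343994, plus strand) had 0 reads in each library. A count of 0 allows up to 3 reads, which would be 0.632, 0.544 and 0.741 TPM in replicates 1, 2 and 3 (a bound for counting error alone, as copies made by PCR do not count separate molecules). Most genes of the meiotic break machinery were also low, with 0 of 9 in the high class and 7 in the low class. TOP6BL and DMC1 were in the medium class. These classes each held 5656 of 19629 protein-coding genes. The highest was TOP6BL (as C11orf80 in the annotation), the partner subunit of SPO11, at 10.9, 12.9 and 13.0 TPM, and the lowest was HORMAD1, which organizes meiotic chromosome axes, with 1 read in all. The recombinase gene DMC1 had 8.87, 8.08 and 9.03 TPM. Among 7 germ cell markers, STRA8 had 0 reads and the highest, SYCP3, had 4.18 ± 1.40 TPM (SD, n = 3). A subunit of the SPO11 complex was thus counted in all libraries in which SPO11 itself was not.

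Promoter sequences were compared because TOP2A and SPO11 mark the ends of the range and TOP2B is the paralog of TOP2A. RefSeq (GRCh38.p14) windows from 250 bases before to 50 bases after the start were matched by symbol for 9 of the 10 genes, with 2 windows for TOP2B, and TOP1MT had no match. The window shown for TOP2B starts 2 bases from the 5′ end of the gene in GENCODE. Searched on both strands were the CCAAT box (CCAAT), the binding motif of NF-Y, the CHR element (TTTGAA), known from genes of G2 phase and mitosis, the GC box (GGGCGG), bound by factors of the SP family, and the TATA box (TATAAA). In these windows no CCAAT match overlapped a CHR match. Capitals mark the matches of the CCAAT box and the CHR element only, read as ATTGG or TTCAAA where they lie on the other strand. Matches of the GC box and the TATA box are left in lower case. The windows are chr17:40417847-40418146 for TOP2A (minus strand), chr3:25664858-25665157 for TOP2B (minus strand) and chr20:57329553-57329852 for SPO11 (plus strand).

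TOP2A: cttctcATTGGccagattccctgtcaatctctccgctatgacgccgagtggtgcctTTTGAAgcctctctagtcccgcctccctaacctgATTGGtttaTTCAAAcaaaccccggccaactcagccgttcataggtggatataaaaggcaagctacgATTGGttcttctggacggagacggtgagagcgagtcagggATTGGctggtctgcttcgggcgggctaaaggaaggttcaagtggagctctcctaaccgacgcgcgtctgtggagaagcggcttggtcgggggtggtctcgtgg
TOP2B: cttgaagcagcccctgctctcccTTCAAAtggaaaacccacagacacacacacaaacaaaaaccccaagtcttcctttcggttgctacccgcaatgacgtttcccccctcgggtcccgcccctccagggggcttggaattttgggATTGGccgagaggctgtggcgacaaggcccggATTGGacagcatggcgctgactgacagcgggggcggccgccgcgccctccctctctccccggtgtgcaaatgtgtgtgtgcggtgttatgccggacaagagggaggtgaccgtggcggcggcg
SPO11: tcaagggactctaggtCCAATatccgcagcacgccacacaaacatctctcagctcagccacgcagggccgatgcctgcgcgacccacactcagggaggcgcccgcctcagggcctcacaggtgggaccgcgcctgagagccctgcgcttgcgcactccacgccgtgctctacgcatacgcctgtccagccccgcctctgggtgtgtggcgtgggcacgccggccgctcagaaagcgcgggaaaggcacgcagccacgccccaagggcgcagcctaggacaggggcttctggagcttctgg

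The TOP2A window held 4 CCAAT matches, all in the inverted orientation, at -244, -160, -93 and -53 from the start, and 2 CHR matches, at -194 and -151. Of 35116 promoter windows, 34.6% held at least 1 CCAAT match and 0.991% held at least 4, while 15.2% held a CHR match and 2.27% at least 2. The TOP2B window shown held 2 CCAAT matches, at -105 and -73, and 1 CHR match. The other TOP2B window, which starts 537 bases from the 5′ end in GENCODE, held neither. Of the remaining windows, that of SPO11 held 1 CCAAT match and no CHR match. Of the other 6 genes with a window, none held a CCAAT match, and SPRTN and TDP1 held 1 CHR match each, in windows whose starts lie 1189 and 988 bases from the 5′ end of the gene in GENCODE. GC boxes were matched 4 times in the window of TDP2, 3 times in that of TOP3A, 2 times in the TOP2B window shown and 1 time in each of the other TOP2B window and those of TOP2A, TOP1, TOP3B and TDP1, and not in those of SPRTN and SPO11, and 15786 of the 35116 windows held a match. A TATA box match was found in TOP2A alone among the windows of these genes, at -111, against 11.5% of all windows. CpG dinucleotides numbered 19 in the TOP2A window, 21 in that shown for TOP2B, 53 in the other TOP2B window and 26 in that of SPO11, against a median of 14, so the gene without reads had more than the gene with the highest level. A match is a description of these letters and not a measured binding site.

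Late cell cycle genes, which rise toward mitosis as TOP2A is known to do, were used to place its level. All 15 were in the high class, with a median of 165 TPM over the list, from BUB1, a checkpoint kinase gene, at 95.4 TPM to CCNB1, the cyclin of mitotic entry, at 490 TPM. TOP2A was above 14 of the 15 in each replicate, all but CCNB1, and above 13 with canonical transcripts. By the union of exons, TOP2B, TOP1MT, TDP1, SPRTN and the type IA genes were below all 15 in each replicate. By the same length, TOP1 was above 1 in each replicate, and TDP2 above 1 in replicate 1 only. The places of TOP1 and TOP2B rest on gene length. With canonical transcripts the list ran from 83.8 to 355 TPM with a median of 147 TPM. TOP1 at 175 TPM and TOP2B at 164 TPM were then above that median. In bulk RNA, more cells in late phases and more RNA per cell cannot be told apart.

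By the smallest root mean square difference of log2(TPM + 0.1) over the 3 replicates, the protein-coding genes closest to TOP2A were RPL7 (0.0154), BCAT1 (0.0189) and PRDX6 (0.0248). Those closest to TOP1 were SNRPD1, IQGAP1 and FTSJ3, at 0.0196 to 0.0260, and those closest to TOP2B were STK24, NF2 and DNAJB6, at 0.0113 to 0.0131. With 3 replicates of 1 condition, such nearness describes similar levels only.

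Replicates were compared gene by gene with a chi-square of the counts against the library totals, which compares libraries and not conditions. Counts of 4 of the 9 detected genes, TOP1, TOP2A, TOP3B and TDP2, differed between libraries past the 95% point of counting error, against 22.1% of 18451 genes with at least 20 reads. Genes with more reads pass more often. Of genes with 2000 to 10000 reads over the replicates 37.0% passed, and of those with more 78.4%, which are the ranges of TOP1 (8543 reads) and TDP2 (2081 reads) and of TOP2A (21782 reads). Of genes with 500 to 2000 reads, the range of TOP3B (981 reads), 24.3% passed. TOP2B, with 12389 reads, did not pass. TOP1 was 0.16 above the mean of the other replicates in replicate 1 and -0.13 from it in replicate 3, in log2 CPM (reads scaled to the library total, with no gene length), with counting errors of 0.03 and 0.04. TOP2A was 0.10 above in replicate 1 and -0.09 from the others in replicate 3, with a counting error of 0.02. TOP3B was 0.37 ± 0.10 (counting SE) above the others in replicate 3. The same 4 genes passed after counts were corrected for GC content, against 17.4% of all genes. By range of reads, 17.5% then passed in that of TOP3B, 29.4% in that of TOP1 and TDP2 and 64.6% in that of TOP2A.

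Replicate 3 had more reads on GC-rich genes than the other libraries. Genes with a GC content near that of TOP3B (58.8%) were a median of 0.09 higher there in log2 CPM, less than the 0.37 of TOP3B. Genes with a GC content like that of TOP1 (42.1%) were a median of -0.05 from the others in replicate 3, and those like TOP2A (38.9%) -0.04. Their part in these differences was not tested further. The genes that passed depended on the library left out. They were TOP2A and TOP3B without replicate 1, TOP1, TOP2A and TOP3B without replicate 2, and TOP1, TOP2A and TDP2 without replicate 3. TOP2A passed in all of these, and TOP3B did not pass without replicate 3. Of all genes tested, 20.5% passed without replicate 1 and 10.9% without replicate 3, against 22.1% with all 3 replicates. Without replicate 2 the share was close to that with all 3 replicates. Fewer genes of any kind thus passed without replicate 3.

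**Figure D4:**
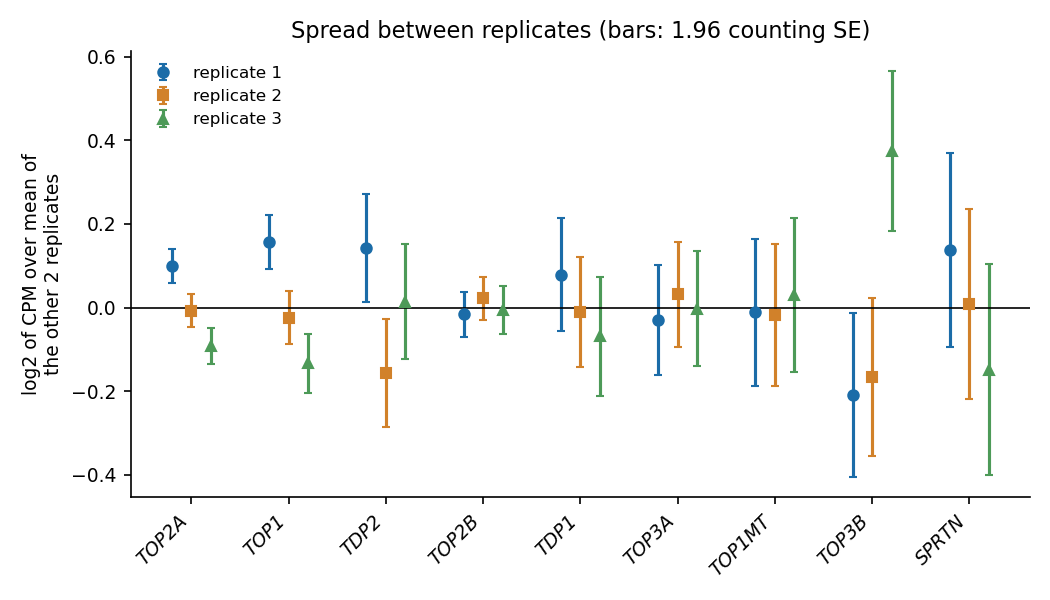
Log2 of the CPM of each replicate over the mean of the other 2, for the 9 detected genes, with bars of 1.96 counting standard errors. TOP3B is the farthest from 0, at 0.37 in replicate 3, and the bars of TOP2B, TOP3A, TOP1MT, TDP1 and SPRTN all include 0.

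Genes known to work with these enzymes were examined as lists of other genes. Of 5 partners of the type IA enzymes, 4 were in the high class, from RMI1 at 72.9 TPM, a subunit of the complex of TOP3A and BLM, to TDRD3 at 13.6 TPM, the partner of TOP3B. The BLM helicase gene had 50.1, 48.0 and 46.7 TPM. Of 6 genes that process DNA ends after TDP1, 4 were in the high class. The highest was PARP1, which senses strand breaks, at 165 ± 6.28 TPM (SD, n = 3), and the lowest was APTX at 9.79 TPM. Among 8 enzymes and modifiers of SUMO and ubiquitin, which mark trapped topoisomerases, 7 were in the high class, and ZNF451, a SUMO ligase for TOP2, was the lowest at 23.1 TPM in the medium class. These 3 lists had medians of 48.3, 54.1 and 65.4 TPM, against 36.6 TPM over the 10 genes here and 7.10 TPM over all protein-coding genes.

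Other routes of adduct removal were examined in the same way. Of 7 proteases and related factors, with a median of 16.5 TPM, 3 were in the high class, led by the proteasome gene PSMB5 at 424 TPM, whereas GCNA, a germ cell protease gene related to SPRTN, had 12, 19 and 9 reads (1.39 ± 0.322 TPM, SD, n = 3). DDI1, another protease gene, had 1 read in replicate 2 and none in the others. Of 10 genes of nucleases and their partners in complexes, with a median of 32.0 TPM, 6 were in the high class and none in the low class. They lay between 5.12 TPM for ERCC4 and 51.9 TPM for RBBP8. Of 6 genes that join DNA ends, with a median of 72.8 TPM, 3 were in the high class. XRCC5, a subunit of the Ku complex, was at 795, 799 and 732 TPM and thus above TOP2A in every replicate, while NHEJ1 had 21, 15 and 15 reads. Each of the 6 lists of partner and repair genes thus had at least 3 genes in the high class, and the meiotic list had 0. The lists differ in size, and the high class held 28.8% of all protein-coding genes. The protease list had 2 genes in the low class and the end joining list 1.

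**Figure D5:**
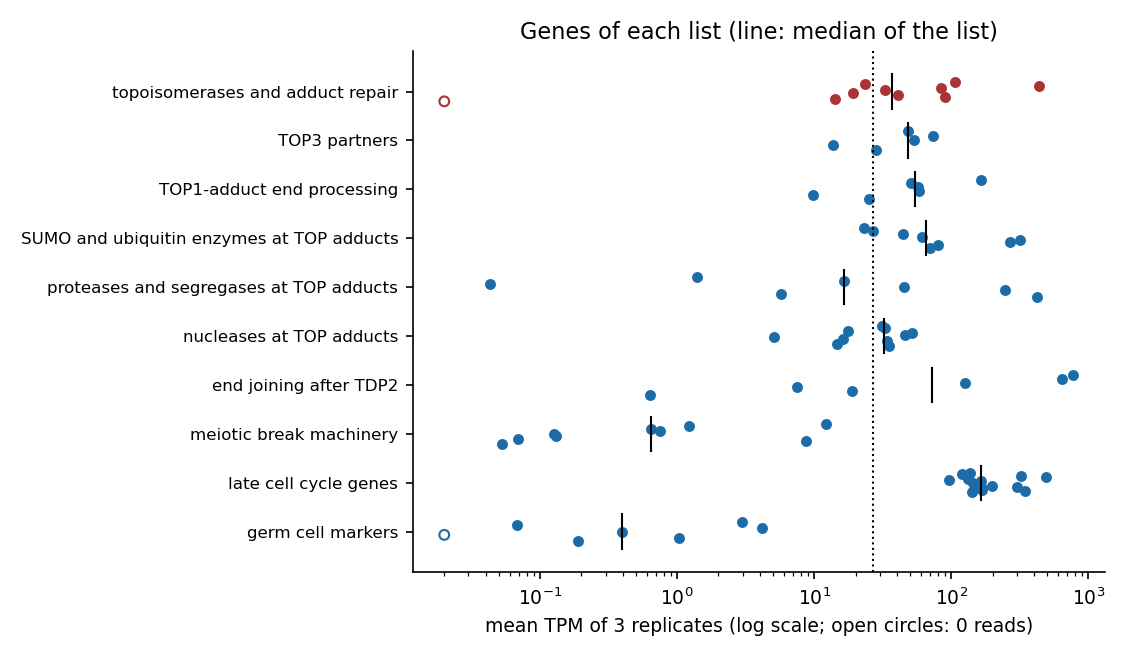
Mean TPM of 3 replicates (log scale) of each gene by list, with the median of the list as a line, the boundary of the high class at 27.0 TPM as a dotted line and genes with 0 reads as open circles at the left edge. All 15 late cell cycle genes and no gene of the meiotic and germ cell lists lie to the right of the boundary.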

How the data were processed

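RNA-seq was performed on 3 H9 replicates. The authors trimmed reads with trim_galore (version 0.4.4), aligned them to GRCh38 with tophat (version 2.1.1) and computed abundances with cufflinks (version 2.2.1), and they deposited whole-number counts per gene without normalization. How these counts were made (tool, annotation, strand) is not given in the sources used here. Identifiers were matched to GENCODE release 44 on the same build (56948 genes). Depth was 8655155 to 12024802 reads, which limits genes with few reads. TPM used the union of exons, and classes applied the rule of the study to this TPM. The cufflinks values on which the study based its classes were not used. The members and lists were chosen with earlier results of these data known. Genes named were the 10 members, genes that overlap or copy them, up to 4 of each list (highest, lowest and those at 0), and the 3 nearest in level to TOP1, TOP2A and TOP2B. BLM, DMC1, GCNA, COL1A1, COL1A2, FOXA2 and EOMES fall outside this rule and were named after their values were seen, and the highest gene of 1 list is not reported here. No comparison between groups was possible.

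The chi-square step was tested on simulated counts at the real depths, drawn with counting error alone (Poisson). It called 80.0%, 94.0% and 100.0% of genes changed 1.25-, 1.5- and 2-fold in 1 replicate (50 genes each), and 5.25% of 18252 unchanged genes. The changed genes were drawn only from genes well above the minimum of 20 reads, so the first 3 rates do not cover genes near that minimum. The rate for unchanged genes follows from the 95% point of the test, because the simulation holds counting error alone. The real libraries varied more, as 22.1% of 18451 genes passed, so 5.25% is not a rate of false calls in these data. Python 3.11.15, R 4.3.3, blastn 2.17.0, edgeR 4.0.16 and DESeq2 1.42.0 (scaling factors for the alternatives only) were used. Alternatives were other gene lengths, CPM, TMM or DESeq2 scaling, mitochondrial genes left out, thinned counts, medians, other thresholds and gene sets for the classes, a GC correction and leaving out each replicate.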

Additional observations from a re-analysis of the deposited data

How the results depend on the processing

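Gene length moved the ratios most. With the longest transcript, the canonical transcript and CPM, the log2 ratio of TOP2A to TOP2B (2.36) was 1.27, 0.84 and 0.81, that of TOP1 to TOP1MT (2.20) was 0.86, 1.91 and 2.86, and that of TDP1 to TDP2 (-1.13) was -0.88, -1.01 and -0.071. The log2 ratio of TOP3A to TOP3B (0.78) was 0.43 and 1.09 with the longest transcript and CPM, and reversed to -0.13 with canonical transcripts. These settings differ in the length used alone. Scaling by TMM or DESeq2 factors or leaving out mitochondrial genes cannot change a ratio within a library, and thinning to 10% and the median of replicates moved none by more than its SD.

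The number of genes in the high class, 6, was 7 with canonical transcripts (without TOP3A, with TOP1MT and TOP3B). It was 5 with a threshold of 1 TPM (without TOP3A) and 9 with all genes classified, noncoding genes included. These last 2 settings move the class boundary for every gene. The share of protein-coding genes in the class was not computed for them, so 5 and 9 are not results about these genes. The number of genes whose counts differed between libraries, 4, was 2 to 3 with 1 replicate left out. The share of all genes that passed also changed with the replicate left out, and was lowest without replicate 3. The numbers with 1 replicate left out therefore stand against different shares of all genes. Among the 9 detected genes, mean TPM moved by more than its SD for 7 with the longest and 7 with the canonical transcript (5 higher and 2 lower in both), 3 without mitochondrial genes and 1 with thinned counts. Leaving out mitochondrial genes scales the other genes of a library alike. The 3 that moved, TOP1MT, TOP2B and TOP3A, had the smallest SDs relative to their means. Depth limits SPO11, DDI1 and the meiotic genes, for which a few reads set the level. With 1 replicate left out, the 4 ratios lay at 2.32 to 2.39, 2.14 to 2.25, 0.72 to 0.91 and -1.18 to -1.11. No paired analysis was possible because only untreated H9 cells were measured.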
